A study of Mus musculus with 5 samples.

Results

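Genes that mark tissue macrophages, together with the subunits of complement C1q, were followed in RNA from mouse tumor and lung. The 10 genes were C1qa, C1qb, C1qc, Ms4a7, Apoe, Trem2, Mrc1, Csf1r, Adgre1 and Cd68, taken by symbol from a table of 55276 rows, and all 10 were present and passed a filter of a mean of at least 1 TPM (transcripts per 1000000 transcripts, a length-corrected level). The series asks how galectin-1 and lasting STING activity in tumors bear on metastasis and on the recruitment of polymorphonuclear myeloid-derived suppressor cells (PMN-MDSCs), immature neutrophil-like cells known to dampen T cell responses. The labels give 3 lung libraries (replicates 1, 2 and 3) and 2 tumor libraries (replicates 2 and 3), each of sorted primary cells labelled PMN-MDSC from wild-type (WT) mice, with a minimum of 2000000 cells and 20M paired reads stated per library. No agent, transgene or knockout is named for either group. The sources used here do not give the strain, the age, the tumor model, the surface markers of the sort or whether each library is from another animal. The p-values therefore reflect library-to-library spread only, and that spread may be technical.

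C1q starts the classical complement cascade. It is built from A, B and C chains, the products of C1qa, C1qb and C1qc, and binds antibody complexes, dying cells and debris. Unlike most complement proteins, which the liver secretes, C1q is made mainly by macrophages and related myeloid cells, and C1q-positive macrophages are common in many tumors. Csf1r encodes the receptor through which CSF1 and IL-34 keep macrophages alive, Adgre1 encodes F4/80, Cd68 a lysosomal membrane protein, Mrc1 the mannose receptor CD206, Trem2 a lipid-sensing receptor, Apoe a lipid-carrying apolipoprotein, and Ms4a7 a membrane protein of macrophages.

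The tumor libraries went against their cell type label in the genes that define neutrophils. A list of 19 neutrophil genes had a summed level of 40341 to 66693 TPM in the lung libraries, against 1302 and 4363 TPM for tumor replicates 2 and 3. Ptprc, which encodes the leukocyte antigen CD45, was at 842, 926 and 959 TPM in lung and at 18.5 and 75.3 TPM in tumor. In the opposite direction, the sum over 16 epithelial genes was 89.7 to 158 TPM for lung, against 6882 and 6946 TPM for tumor. None of the neutrophil and 24 resident-type macrophage genes listed was at 0 in both tumor libraries. In such bulk samples, fewer cells of a type and less RNA per cell cannot be told apart. Of 16387 genes tested with limma on log2(TPM + 1), 31.6% were called higher and 27.0% lower in tumor, where a call needs a Benjamini-Hochberg adjusted p under 0.05 and at least a 1.5-fold difference. With each library centred on 40 pan-leukocyte genes, 99.5% of all calls were higher against 53.9% in the uncentred comparison, and the median difference of all genes moved from 0.018 to 3.73 (log2). Directions below are relative to all transcripts in a library unless this centring is named. List counts below are to be read beside the 31.6% and 27.0% of all tested genes. Counts with centring are to be read beside the 89.2% of all tested genes called higher under it.

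The 10 genes split into 3 patterns. The C1q subunit genes and Ms4a7 were 17.7- to 23.4-fold higher in tumor, Apoe and Trem2 were 2.71- and 2.49-fold higher, and Csf1r, Adgre1 and Cd68 were 4.41-, 3.16- and 2.37-fold lower, while all 10 were higher with pan-leukocyte centring, as were 89.2% of all tested genes. Mrc1 did not pass. In all, 6 of 10 genes were called higher, against a background of 31.6%, and 3 lower, against 27.0%, so 9 of 10 were called, against 58.6% of all tested genes. Both tumor values lay above every lung value for 6 genes (39.9% of all tested genes) and below for 3 (35.7%), together 9 of 10 against 75.6%. The median difference of the 10 genes was 1.26, beside 0.018 for all tested genes. In the authors' deposited table, which holds their own test, the false discovery rates of the 10 genes lay between 0.217 and 0.788.

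**Figure D1:**
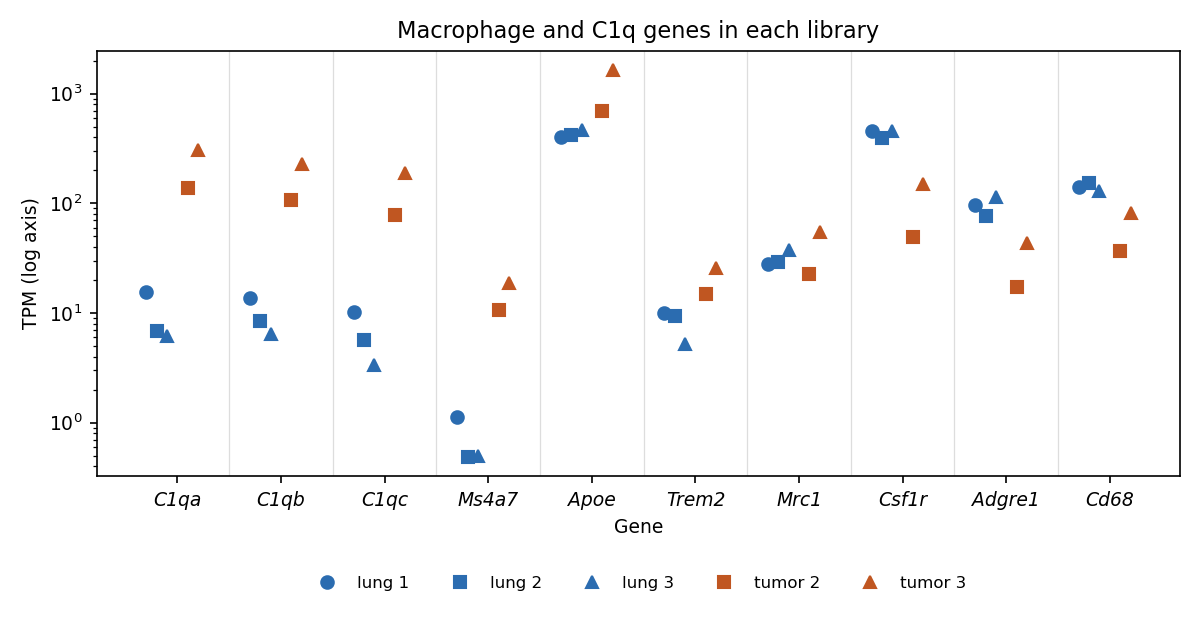
TPM (log axis) of the 10 genes in each of the 3 lung and 2 tumor libraries, 1 point per library. C1qa, C1qb, C1qc and Ms4a7 lie far above lung in both tumor libraries, Mrc1 overlaps, and Csf1r, Adgre1 and Cd68 lie below lung. The direction of Csf1r, Adgre1 and Cd68 reverses with pan-leukocyte centring, under which 89.2% of all tested genes are higher.

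The 3 C1q genes were each called higher in tumor. C1qa was at 15.6, 6.85 and 6.13 TPM in lung replicates 1, 2 and 3 and at 137 and 309 TPM in tumor replicates 2 and 3. Both tumor values were far above every lung value, and lung replicate 1 was the highest of the lung libraries. The difference was 4.41 ± 0.53 on the log2(TPM + 1) scale (SE, limma adjusted p = 0.0024). C1qb was at 13.6, 8.42 and 6.47 TPM in lung and at 107 and 229 TPM in tumor, a difference of 3.97 ± 0.44 (limma adjusted p = 0.00207). C1qc was at 10.2, 5.73 and 3.34 TPM in lung and at 78.0 and 187 TPM in tumor, a difference of 4.14 ± 0.55 (limma adjusted p = 0.00315). Each subunit gene had the same order of libraries, with tumor replicate 3 highest and lung replicate 3 lowest. All 3 calls held under each of 14 alternative settings.

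The proportions of the 3 chains changed less than their sum. Their summed level was 39.4, 21.0 and 15.9 TPM in lung and 323 and 725 TPM in tumor, 20.6-fold higher in tumor. This was tested by a two-sided exact permutation test (p = 0.1), the smallest p that 10 splits of 3 against 2 libraries allow. C1qa held 42.5% and 42.6% of the sum in the tumor libraries and 32.6% to 39.5% in lung. C1qb held 33.3% and 31.6% in tumor and 34.5% to 40.6% in lung. C1qc held 24.2% and 25.8% in tumor and 21.0% to 27.3% in lung. The A chain share was thus above, and the B chain share below, every lung value in both tumor libraries, whereas the C chain share overlapped.

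In the GRCm38 build, by the GENCODE M21 annotation, the 3 genes lie next to each other on the minus strand of chromosome 4 within 18675 bp. C1qb spans chr4:136880129-136886187, C1qc chr4:136889804-136893065 and C1qa chr4:136895917-136898803. Because these genes moved together with Ms4a7, their promoters are shown, beside that of Cd68, which fell relative to all transcripts. RefSeq promoter windows (GRCm38.p6) were searched for 7 of the 10 genes. None was found for C1qa or Adgre1. Csf1r was left out of the search, so counts over the 7 genes do not cover it. The sequences are bases upstream of each gene as GENCODE and RefSeq annotate it, on the minus strand and written 5′ to 3′, and that of C1qc is shorter because RefSeq places its start inside the GENCODE gene. C1qb is at chr4:136886201-136886450, C1qc at chr4:136893066-136893164, Ms4a7 at chr19:11336147-11336396 and Cd68 at chr11:69666171-69666420. Capitals mark matches on either strand to GAGGAA, a core letter run of sites for the myeloid factor PU.1, or to TGCTGA, part of the sites of MAF family factors.
C1qb: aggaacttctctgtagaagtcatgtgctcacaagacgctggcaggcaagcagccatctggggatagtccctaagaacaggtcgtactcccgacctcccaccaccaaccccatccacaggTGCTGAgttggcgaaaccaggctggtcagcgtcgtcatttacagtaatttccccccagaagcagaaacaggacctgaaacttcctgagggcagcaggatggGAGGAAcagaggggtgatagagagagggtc
C1qc: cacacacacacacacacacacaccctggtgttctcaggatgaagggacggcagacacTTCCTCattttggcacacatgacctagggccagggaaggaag
Ms4a7: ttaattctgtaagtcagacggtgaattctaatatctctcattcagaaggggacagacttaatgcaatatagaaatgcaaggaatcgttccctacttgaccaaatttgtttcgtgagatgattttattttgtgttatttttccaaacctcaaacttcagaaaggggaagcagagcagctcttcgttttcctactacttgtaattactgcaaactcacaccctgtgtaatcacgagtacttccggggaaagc
Cd68: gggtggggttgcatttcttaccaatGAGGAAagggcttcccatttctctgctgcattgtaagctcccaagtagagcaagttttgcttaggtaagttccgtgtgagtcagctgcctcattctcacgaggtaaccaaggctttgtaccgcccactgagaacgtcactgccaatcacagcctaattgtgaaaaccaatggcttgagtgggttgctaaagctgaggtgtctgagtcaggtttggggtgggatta
The C1qb window held both letter runs, with TGCTGA starting 131 bases and GAGGAA 30 bases before the RefSeq start. C1qc held 1 match on the opposite strand, written here as TTCCTC, 193 bases before that start, and Cd68 held 1 match to GAGGAA, 225 bases before it. Ms4a7 held neither. Over windows of 250 bases, GAGGAA on either strand was in 23.3% of 32851 promoter windows and in at least 1 window of 6 of the 7 genes. TGCTGA was in 16.1% of promoter windows and in 1 of the 7 genes. The shares are per window and the counts per gene. Some of the 7 genes, among them Apoe, have more than 1 window, so shares and counts are not directly comparable. TATAAA was searched in the same way and was in 12.4% of promoters and in 1 of the 7 genes, Apoe. The runs do not overlap each other in the windows shown, and a match is a description of letters, not of binding.

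Of the other genes in the set, Ms4a7 was the closest to C1q. It was at 1.12, 0.489 and 0.496 TPM in lung and at 10.6 and 18.8 TPM in tumor. Both tumor values were above all lung values, and lung replicate 1 was again the highest in lung. Its lung mean of 0.702 TPM was under the filter of 1 TPM, so Ms4a7 was tested only through its high tumor values. The difference was 3.18 ± 0.34 (limma adjusted p = 0.00186) and held under 14 of 14 alternatives. The ratio of Ms4a7 to summed C1q was 0.0284, 0.0233 and 0.0311 in lung and 0.0329 and 0.0259 in tumor. These ratios overlapped between tissues (log2 difference 0.091, two-sided exact permutation p = 0.7, Benjamini-Hochberg adjusted p = 0.7 over 19 ratios and sums), although summed C1q was 20.6-fold and Ms4a7 21.0-fold higher in tumor. The ratios of Apoe, Trem2, Mrc1, Csf1r, Adgre1 and Cd68 to C1q were instead lower in both tumor libraries than in any lung library (each two-sided exact permutation p = 0.1, adjusted p = 0.106). Ms4a7 lies on chromosome 19 from 11321039 to 11336146 on the minus strand. Of 8 tested relatives of the MS4A family, 5 were lower, 1 was higher and 2 did not pass, with a median of -1.45. With pan-leukocyte centring 5 were higher, against 89.2% of all tested genes. The relative called higher without centring was Ms4a6d, at 12.96 to 15.9 TPM in lung and 22.8 and 42.1 TPM in tumor (1.04). Lower relatives included Ms4a1, which encodes the B cell antigen CD20 and was at 15.4 to 34.9 TPM in lung and at 0.0703 and 0.645 TPM in tumor (-4.20), Ms4a8a (-2.98), Ms4a4c (-2.92), Ms4a4b (-1.58) and Ms4a6c (-1.33).

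Apoe and Trem2 rose less, and their calls rested on fewer settings. Apoe was the most abundant of the 10 genes in tumor. It was at 399, 423 and 470.0 TPM in lung and at 696 and 1643 TPM in tumor, so the tumor libraries lay above lung and differed widely from each other. The difference was 1.31 ± 0.39 (limma adjusted p = 0.0344), and the call did not survive the loss of a single lung library (adjusted p = 0.0859, 0.0909 and 0.0742 without lung replicates 1, 2 and 3). Its size was 0.69 without tumor replicate 3 and 1.93 without tumor replicate 2. Trem2 was at 9.97, 9.32 and 5.18 TPM in lung and at 14.8 and 25.9 TPM in tumor. The lowest tumor value was above the highest lung value, at 14.8 against 9.97 TPM. The difference was 1.21 ± 0.37 (limma adjusted p = 0.0389), and the call ended under 8 of 14 alternatives, among them the removal of each of the 5 libraries in turn, with adjusted p-values between 0.0528 and 0.208. Apoe lies on chromosome 7 from 19696109 to 19699188 and Trem2 on chromosome 17 from 48346401 to 48354147.

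Genes that work with TREM2 and APOE went both ways. Of 19 tested genes of TREM2 signalling and lipid-associated macrophages, 5 were higher, 9 lower and 5 did not pass (median -0.71). With centring 14 were higher, against 89.2% of all tested genes. Tyrobp, which encodes the adaptor DAP12 through which TREM2 signals, was at 1382, 1522 and 1031 TPM in lung and at 98.2 and 228 TPM in tumor (-3.10 ± 0.41, limma adjusted p = 0.00302). Syk, the kinase downstream of DAP12, fell by 3.78, Plcg2 by 2.57 and Hcst, a related adaptor, by 4.06. With centring Tyrobp (0.61), Syk (-0.07) and Hcst (-0.35) were not called, and Plcg2 was called higher (1.15). Spp1, which encodes osteopontin, was at 21.0 to 26.3 TPM in lung and at 1112 and 471 TPM in tumor (4.93 ± 0.39, limma adjusted p = 0.00125). Spp1 was higher in tumor replicate 2, the reverse of all 10 macrophage and C1q genes. Cd63 and Ctsl, a tetraspanin and a cathepsin, rose by 3.27 and 2.50. Of 16 genes of APOE lipoprotein handling, 2 were higher, 7 lower and 7 did not pass (median -0.68), and 15 were higher with centring. The lipoprotein receptor gene Vldlr rose, from 0.258 to 0.428 TPM in lung to 4.17 and 5.85 TPM in tumor (2.17). Abcg1, a cholesterol exporter, fell by 3.98, Apoc2, a neighbour of Apoe, by 2.38 and Pltp, a phospholipid transfer protein, by 1.74. All 4 tested TREM relatives were lower (Trem1, Trem3, Treml2 and Treml4, median -4.18), and with centring their differences lay between -0.75 (Trem3) and 0.45 (Treml2), none of them called.

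Mrc1 was the gene that did not pass. It was at 28.2, 29.4 and 37.7 TPM in lung and at 22.7 and 55.4 TPM in tumor. The tumor libraries lay on either side of all lung libraries. The difference was 0.17 ± 0.40 (limma adjusted p = 0.731), and it was -0.45 without tumor replicate 3 and 0.79 without tumor replicate 2 (adjusted p = 0.197 and adjusted p = 0.0765). With pan-leukocyte centring Mrc1 was called higher (3.89, limma adjusted p = 7.62e-07), beside a median of 3.73 over all tested genes. Mrc1 lies on chromosome 2 from 14229392 to 14332057. Of its 2 tested relatives, Ly75, which encodes DEC-205, was lower (-0.76), and Mrc2 did not pass, at 0.540 to 0.621 TPM in lung and 16.1 and 1.18 TPM in tumor.

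Csf1r, Adgre1 and Cd68, all general markers of macrophages and monocytes, were lower in tumor relative to all transcripts. Each was higher with pan-leukocyte centring, as were 89.2% of all tested genes. Their centred differences lay under the median of all tested genes, which was then 3.73. Csf1r was at 459, 396 and 459.7 TPM in lung and at 49.4 and 149 TPM in tumor. The tumor values were well below all lung values. The difference was -2.33 ± 0.48 (limma adjusted p = 0.0109), and 1.38 with centring (adjusted p = 0.00955). It was -1.55 without tumor replicate 2 and -3.12 without tumor replicate 3. Adgre1 was at 97.5, 76.7 and 115 TPM in lung and at 17.2 and 43.8 TPM in tumor. Its difference was -1.75 ± 0.43 (limma adjusted p = 0.0195), and 1.96 with centring. The uncentred call ended without lung replicate 1, lung replicate 3 or tumor replicate 2 (adjusted p = 0.0525, 0.0595 and 0.0599), with a difference of -1.10 in the last case. Cd68 was at 142, 153 and 129 TPM in lung and at 36.9 and 82.5 TPM in tumor. Its difference was -1.34 ± 0.36 (limma adjusted p = 0.0259), and 2.38 with centring. That uncentred call ended when lung replicate 1, 2 or 3 was left out (adjusted p = 0.0644, 0.0777 and 0.0595), and without tumor replicate 2 the difference was -0.77. Csf1r lies on chromosome 18 from 61100598 to 61132149, Adgre1 on chromosome 17 from 57358691 to 57483527 and Cd68 on chromosome 11 from 69664213 to 69666153.

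The ligands of CSF1R went opposite ways. Il34 was at 0.567, 1.82 and 0.506 TPM in lung and at 95.3 and 76.4 TPM in tumor (5.52 ± 0.34, limma adjusted p = 0.000985). Its lung mean of 0.966 TPM was under the filter of 1 TPM, so Il34 was tested only through its high tumor values. IL-34 is made by keratinocytes and neurons among other cells, and here it was high in the libraries with the high epithelial sums. The part of epithelial RNA in this difference was not tested. Csf1 was at 108, 174 and 161 TPM in lung and at 17.99 and 58.1 TPM in tumor (-2.12 ± 0.53, limma adjusted p = 0.0208). Among 19 genes of the CSF1R axis and of macrophage transcription factors, 3 were higher, 10 lower and 6 did not pass (median -1.24). With centring 14 were higher, against 89.2% of all tested genes. The transcription factor gene Maf also rose, at 1.14 to 2.40 TPM in lung and 23.3 and 24.4 TPM in tumor (3.14). Spi1, which encodes PU.1, was at 564, 648 and 557 TPM in lung and at 24.3 and 71.3 TPM in tumor (-3.78). The growth factor receptor genes Csf3r and Csf2ra fell by 4.66 and 3.02, and Pparg, a factor of alveolar macrophages, fell by 3.21. With centring none of Spi1 (-0.07), Csf3r (-0.95), Csf2ra (0.70) and Pparg (0.51) was called.

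Set against Ptprc in the same library, all 10 genes were higher in tumor without overlap, as were 83.7% of all tested genes, so the count says little about the 10. This ratio does not depend on how a library is scaled. Summed C1q per Ptprc was 0.0468, 0.0227 and 0.0166 in lung and 17.5 and 9.63 in tumor. Csf1r per Ptprc, the smallest change of the set, was 0.545, 0.427 and 0.479 in lung and 2.67 and 1.98 in tumor, a mean ratio 4.81-fold higher in tumor. Mean ratios were 28.2-fold higher for Mrc1, 62.8-fold for Apoe and 62.7-fold for Trem2, and 415- to 536-fold for the C1q subunit genes. These sizes depend on the reference: with the mean of the 40 pan-leukocyte genes in place of Ptprc, the log2 difference went from 2.26 to 1.21 for Csf1r, from 5.92 to 4.87 for Apoe and from 9.17 to 8.13 for C1qa. Each of these comparisons had p = 0.1 in the two-sided exact permutation test, the smallest possible, and an adjusted p of 0.106 over 19 sums and ratios. Tumor replicate 2 had the higher ratio for each of the 10 genes and for 86.7% of all tested genes, Ptprc itself being 4.07-fold higher in tumor replicate 3.

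**Figure D2:**
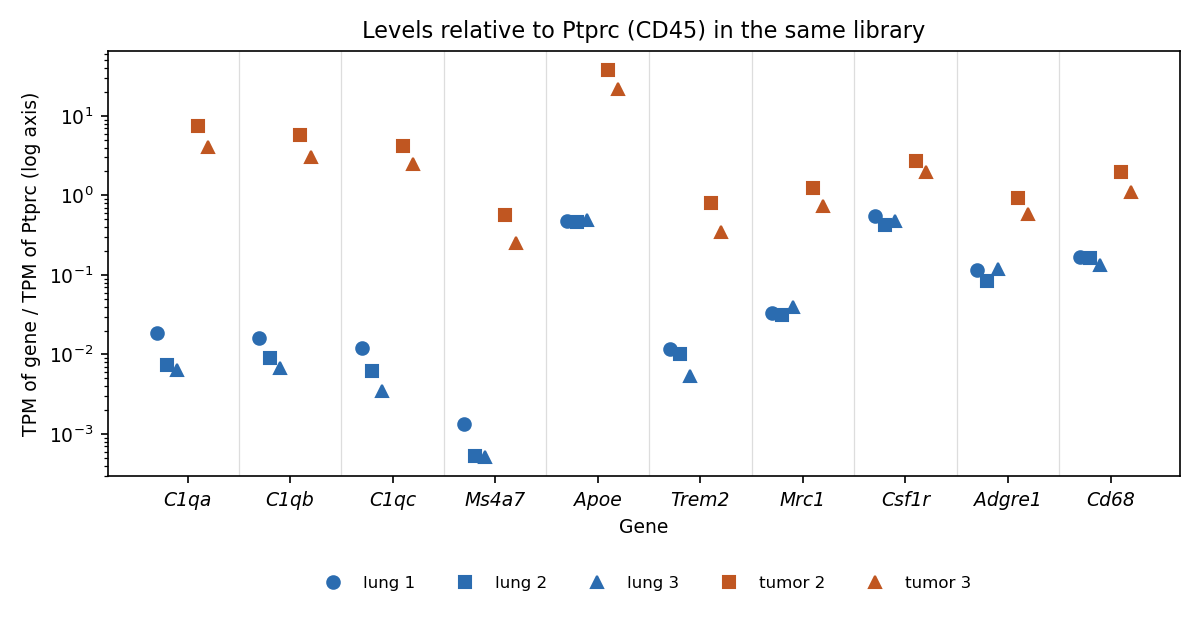
TPM of each gene divided by the TPM of Ptprc in the same library (log axis), 1 point per library. Both tumor libraries lie above all 3 lung libraries for each of the 10 genes, as for 83.7% of all tested genes, and tumor replicate 2 lies above tumor replicate 3, as for 86.7%.

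The order of levels within a tissue also changed. In lung, Csf1r (438 ± 36.5 TPM, SD, n = 3) and Apoe (431 ± 36.1 TPM) were highest and overlapped, followed by Cd68 (141 ± 11.9 TPM), Adgre1 (96.4 ± 19.1 TPM) and Mrc1 (31.8 ± 5.17 TPM), whose ranges were separate. C1qa (9.52 ± 5.26 TPM), C1qb (9.50 ± 3.69 TPM), Trem2 (8.16 ± 2.60 TPM) and C1qc (6.43 ± 3.49 TPM) overlapped with their neighbours, and Ms4a7 (0.702 ± 0.362 TPM) was lowest. In tumor, Apoe (1170 ± 670.0 TPM, SD, n = 2) stood above all others. It was followed by C1qa (223 ± 121 TPM), C1qb (168 ± 86.1 TPM), C1qc (133 ± 77.3 TPM), Csf1r (99.3 ± 70.5 TPM), Cd68 (59.7 ± 32.2 TPM), Mrc1 (39.0 ± 23.1 TPM), Adgre1 (30.5 ± 18.8 TPM), Trem2 (20.3 ± 7.85 TPM) and Ms4a7 (14.7 ± 5.77 TPM). From C1qa downward the ranges of neighbours overlapped in tumor, yet each gene was above the next in both libraries. The C1q genes made up 1.29% to 3.35% of the summed level of the 10 genes in lung and 27.6% and 26.4% in tumor.

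The tumor libraries differed from each other in a shared way. All 10 genes were higher in tumor replicate 3, by 1.75-fold (Trem2) to 3.02-fold (Csf1r), with a median of 2.31-fold. Across all tested genes above 0 in both libraries the median ratio was 0.987, and 48.5% were higher in tumor replicate 3. Pan-leukocyte genes (median 2.92-fold) and neutrophil genes (3.35-fold) were also higher in tumor replicate 3, epithelial genes were at 1.04-fold, and fibroblast genes at 0.271-fold. With these 2 libraries the ratio of Cd68 to summed C1q was 0.114 in both, that of Mrc1 was 0.0704 and 0.0763, and that of Apoe was 2.16 and 2.27. Csf1r to C1q was 0.153 and 0.206.

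**Figure D3:**
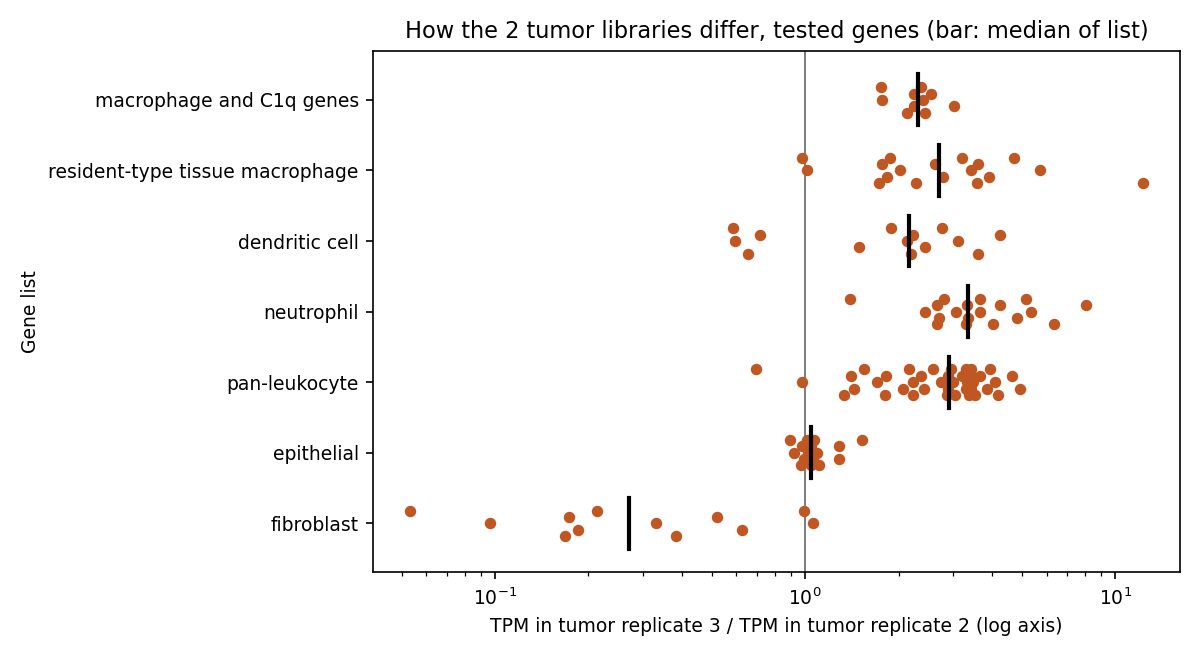
Ratio of TPM in tumor replicate 3 to TPM in tumor replicate 2 (log axis) for tested genes above 0 in both, by gene list, 1 point per gene, with a bar at the list median. The 10 macrophage and C1q genes lie between 1.75 and 3.02, the epithelial median is 1.04 and the fibroblast median 0.271.

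Other markers of macrophages and related cells gave a divided picture. Of 18 tested genes of resident-type tissue macrophages, 8 were higher, 3 lower and 7 did not pass (median 1.33), and 16 were higher with centring. Of all tested genes, 31.6% were higher, 27.0% lower and 89.2% higher with centring, so the centred count lies near that share. Pf4, which encodes platelet factor 4, was at 5.76 to 9.67 TPM in lung and at 104 and 105 TPM in tumor (3.73). Folr2, a folate receptor of resident macrophages, was at 3.02, 2.22 and 0.359 TPM in lung and at 13.6 and 37.9 TPM in tumor (3.20). Fcrls (3.36) and Stab1 (1.72) also rose, as did Cd163, a haemoglobin scavenger receptor, at 0.733 to 1.58 TPM in lung and 3.35 and 15.8 TPM in tumor (2.04). The fallers were Lyve1 (-3.32), Cd14 (-2.13) and Siglec1 (-1.69). Alveolar macrophage genes were lower for 14 of 15 (median -3.71). Marco, a scavenger receptor, was at 15.5 to 34.5 TPM in lung and 0.0378 and 0.540 TPM in tumor, and Fabp1 (-4.03), Krt79 (-3.81) and Pparg fell as well. With centring 4 alveolar genes were higher and 3 lower, the lower ones being Chil3, Ear1 and Ear2. Monocyte genes were lower for 9 of 13 and higher for 2 (median -2.92), and 6 were higher with centring. The higher genes were Fn1 (3.96) and Vcan (3.68), which encode matrix proteins also made by stromal cells, and Spn, Cd300e and Ly6c2 fell. Among 14 dendritic cell genes 2 were higher and 5 lower (median -0.60), and 12 were higher with centring. Cacnb3 and Fscn1 were higher, Wdfy4 and Cd24a were lower, and the class II gene H2-Ab1 was at 165 to 367 TPM in lung and 132 and 296 TPM in tumor.

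**Figure D4:**
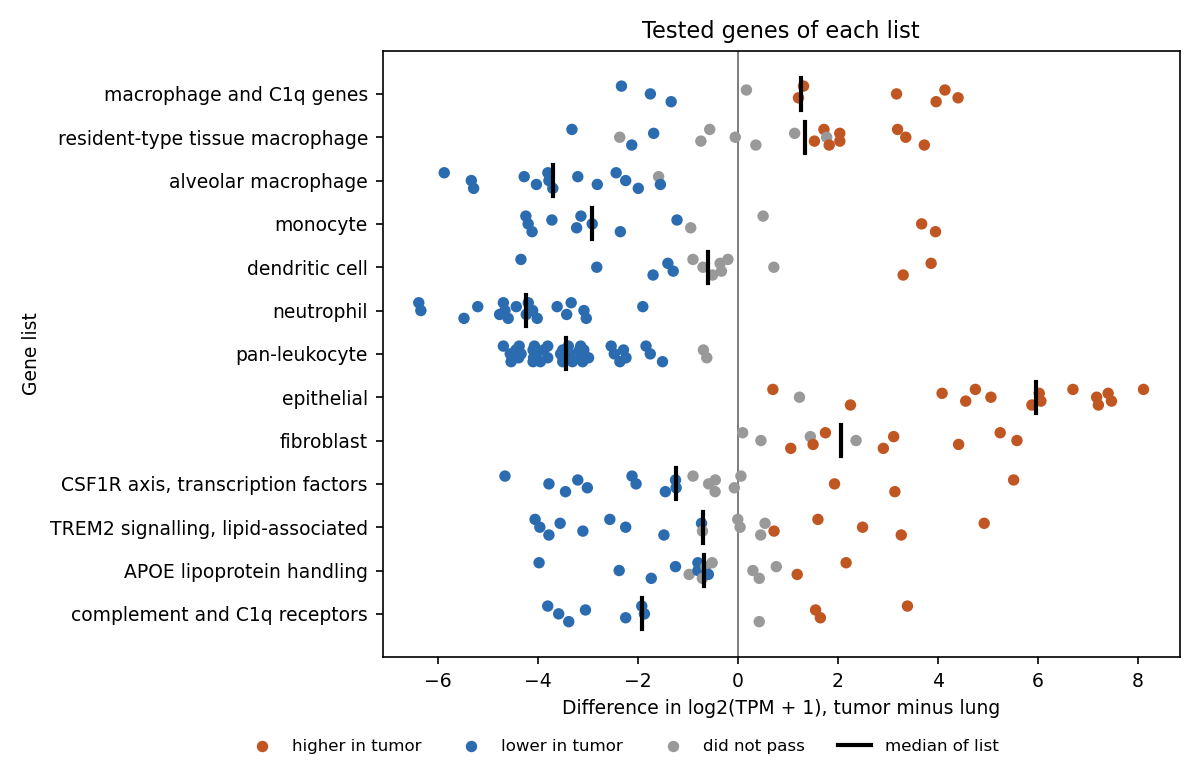
Difference in log2(TPM + 1), tumor minus lung, of the tested genes of each list, 1 point per gene, with a bar at the list median. The 10 macrophage and C1q genes have a median of 1.26 and alveolar macrophage genes one of -3.71. With pan-leukocyte centring those medians are 4.98 and 0.0083, beside 3.73 for all tested genes.

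The genes that act after C1q in the classical pathway were not called higher. C1q works with the proteases C1r and C1s, of which C1s cuts C4 and C2 and so leads to C3. Of 15 such genes 6 could be tested, of which 2 were lower and 4 did not pass (median -1.01), and 5 were higher with centring. In limma at an unadjusted p under 0.05 and without centring, 0 of the 6 were higher and 4 lower. C3, the central complement component, was at 285, 277 and 339 TPM in lung and at 14.0 and 44.1 TPM in tumor (-3.53 ± 0.48, limma adjusted p = 0.00338). With centring C3 was at 0.19 and was not called. C4b was at 4.62 to 6.17 TPM in lung and 1.54 and 3.22 TPM in tumor (-0.98). The C1r gene C1ra was at 1.64 to 2.47 TPM in lung and 0.486 and 1.61 TPM in tumor and did not pass, and the C1s gene C1s1 stayed under the filter, at 0.646 to 1.47 TPM in lung and 0.610 and 0.527 TPM in tumor. In the lectin and alternative pathways 1 of 6 genes was higher and 2 were lower (median -0.11), and 5 were higher with centring. Masp1, a lectin pathway protease, rose by 2.95, while Fcnb, a ficolin of neutrophil precursors, and Cfp, which encodes properdin, fell by 2.48 and 1.53.

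Complement inhibitors and receptors went both ways. Of 6 tested inhibitors, Clu and Cd55 were higher, Cr1l and Cd46 lower and 2 did not pass (median 0.54), and 6 were higher with centring. Clu, which encodes clusterin, was at 13.8, 7.20 and 7.91 TPM in lung and at 733 and 221 TPM in tumor (5.30 ± 0.58, limma adjusted p = 0.00198), with tumor replicate 2 higher. Cd55, decay-accelerating factor, rose by 1.76. Of 11 tested receptors for C1q and other complement fragments, 3 were higher and 7 lower (median -1.93). With centring 7 were higher, against 89.2% of all tested genes. Without centring the higher genes were C1qbp, Calr, the chaperone calreticulin (1.55), and the C3a receptor gene C3ar1 (1.65). C1qbp, a mostly mitochondrial protein that can bind C1q, was at 4.35 to 8.41 TPM in lung and 90.5 and 69.5 TPM in tumor (3.39). Itgb2 fell by 3.81 and the C5a receptor genes C5ar1 and C5ar2 by 3.59 and 3.39. With centring Itgb2 (-0.09), C5ar1 (0.13) and C5ar2 (0.33) were not called. C1q-like secreted proteins had 4 tested genes, of which C1qtnf1 (5.21) and C1qtnf6 (2.64) were higher, C1qtnf12 was lower (-2.43) and C1qtnf3 did not pass, and all 4 were higher with centring.

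The likeness of other genes to the mean C1q profile over the 5 libraries was measured as the root mean square distance between log2(TPM + 1) values centred on each gene's mean, given as a description because the 5 libraries share the tissue difference. The nearest was Gabrp, a GABA receptor subunit gene (distance 0.215), followed by Ccl8, a chemokine gene of macrophages and other cells (0.274), the claudin gene Cldn2 (0.281), Serpinb7 (0.314) and the desmoglein gene Dsg2 (0.345). Ccl8 was at 1.55 TPM in lung replicate 1, listed at 0 in lung replicate 2, at 0.171 TPM in lung replicate 3 and at 11.6 and 35.9 TPM in tumor. Cldn2 and Dsg2 encode proteins of epithelial junctions, and the epithelial sum was high in the same libraries, whose part in this likeness was not tested. Dsg2 was at 0.233 to 0.577 TPM in lung and at 16.3 and 24.3 TPM in tumor. Among the other macrophage markers of the set, Ms4a7 was closest to C1q, at 0.549, and Csf1r was farthest, at 3.21. Ms4a7 thus lay farther from C1q than Dsg2, at 0.345.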

How the data were processed

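The authors' values are TPM from Salmon 0.9.1 with GENCODE mouse M24, according to the series' design text. TPM deposited here adds up to 1000000 per library and keeps no read counts, so counting error is unknown. The authors also deposited a p-value and a false discovery rate for each gene, copied here only for the 10 genes. Of 55276 rows, 26 held spreadsheet dates for symbols and were left out.

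Groups follow the tissue in the labels. The members and gene lists were chosen with earlier results of these data known. Tumor was compared with lung by limma (version 3.58.1, R 4.3.3, moderated with an intensity trend) on log2(TPM + 1), two-sided. All 5 libraries entered, and 16387 genes whose mean over them reached 1 TPM were tested and adjusted together by Benjamini-Hochberg. A gene can thus pass the filter through 1 group only, as Ms4a7 did through tumor. Il34, Vldlr, Masp1, C1qtnf1, C1qtnf6, C3ar1, Ccl8, Cldn2, Serpinb7 and Dsg2 did so too, each with a lung mean under 1 TPM. Mrc2 and C1qtnf3, which were not called, also passed the filter only through tumor. Such genes could be tested only because they were high in tumor. Marco, Fabp1, Ms4a1 and Pparg passed the filter only through lung. The pseudocount makes changes of low genes look smaller. A fold is a ratio of mean TPM. The code was tested on simulated data. Sums and ratios had an exact permutation test.

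Genes named are the 10, up to 4 per list with the smallest p, and those that complete a count of 5 or fewer. Also named are the 5 nearest to C1q after the exclusions given above, and Ptprc, Csf3r, Spi1, Tyrobp, Csf1 and Il34. Hcst, Syk, C1s1, C5ar1, Folr2, Cd163 and H2-Ab1 were named after their values were seen. Some genes that the rule takes are not reported here. Alternatives varied the pseudocount (0.1 or 0.01), the filter (none or 5 TPM), the trend, the scaling (without mitochondrially encoded genes, centred on pan-leukocyte genes, quantile normalized), a replicate block and the libraries included. Coordinates are from GENCODE M21 and promoters from RefSeq, both GRCm38.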

Additional observations from a re-analysis of the deposited data

How the results depend on the processing

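Over 14 alternatives for each of the 10 genes, 113 of 140 comparisons kept direction and call, 22 lost the call, 1 gained it and 4 reversed. C1qa, C1qb, C1qc and Ms4a7 kept theirs throughout. Centring on pan-leukocyte genes gave 14622 higher and 73 lower genes in all, 10 higher and 0 lower of the 10, and 168 higher and 8 lower of the listed genes, and it reversed Csf1r (1.38), Adgre1 (1.96) and Cd68 (2.38). This follows from moving the median of all genes to 3.73, and rescaling without mitochondrially encoded genes moved it to 0.13. Mrc1 was at -0.45 without tumor replicate 3 and at 0.79 without tumor replicate 2, and the cause was not tested. Leaving out 1 library gave 3314 to 4817 higher and 2900 to 4134 lower genes in all, with 3314 and 2900 without tumor replicate 2, and 4 to 5 higher and 1 to 3 lower of the 10, the lowest value of 1 being that without lung replicate 1 or lung replicate 3. C1q per Ptprc rose by 8.96 (log2), or by 7.92 per mean pan-leukocyte gene. No filter ended the calls of Apoe, Trem2 and Cd68 (adjusted p = 0.0713, 0.0732 and 0.0509), and quantile normalization those of Trem2 and Cd68 (0.0797 and 0.0652). With replicate numbers from the titles as a replicate block, 3662 genes were higher and 3449 lower, with 4 and 2 of the 10, and Apoe, Trem2 and Cd68 lost their calls (0.0942, 0.128 and 0.114). Deviations of same-numbered libraries correlated at 0.0034 and 0.083 across genes, and the labels do not tie the numbers to animals. With 2 tumor libraries the deviations of 1 mirror those of the other. Lung replicate 2 with tumor replicate 3, and lung replicate 3 with tumor replicate 2, thus gave -0.0034 and -0.083, and these values cannot decide on pairing. The exact permutation tests of sums and ratios could not go below p = 0.1. TPM keeps no depth, so the counting error of low values such as those of Ms4a7 in lung is unknown.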
